A study of Mus musculus with 4 samples.

Results

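Gzmc, Gzmd, Gzme, Gzmf and Gzmg are 5 neighbouring mouse genes for granzymes C to G, and they were followed here in C2C12, an established mouse myoblast line that exits the cell cycle and fuses into myotubes when serum is withdrawn. They were taken by gene symbol from the deposited expression tables, in which they are 5 of 24850 named entries for total RNA and 5 of 24992 for polyA RNA. They were chosen by their measured FPKM in these same libraries, so their changes in both comparisons are given as a description, with no test. The RNA-seq samples are 4 C2C12 libraries, 1 per condition, from a study of enhancer RNAs in muscle differentiation and of hnRNPL, a nuclear RNA-binding protein that acts in splicing and transcription. Ribosomal RNA-depleted total RNA was taken from proliferating myoblasts (MB), 24 h before the switch to differentiation medium (DM -24 h in the labels), and from myotubes (MT) at DM 72 h. PolyA RNA was taken at DM 48 h from cells transfected beforehand with a control siRNA (si-NC) or with an siRNA against hnRNPL (si-hnRNPL). All 4 libraries came from the same line, whose cells have no added transgene in the labels. Total RNA and polyA RNA differ in library preparation, in time and in siRNA transfection, which the labels give for the polyA libraries only. These cannot be told apart, so the values are only set side by side.

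Granzymes are serine proteases that cytotoxic T cells and natural killer cells store in secretory granules. They are made as inactive precursors, are trimmed by the protease cathepsin C (Ctsc), are packed on the proteoglycan serglycin (Srgn), and enter a target cell through pores made by perforin (Prf1). Granzyme B, the best known of them, cuts after aspartate and starts apoptosis. Granzymes C to G form a rodent expansion beside Gzmb and are known mainly from activated lymphocytes and from natural killer cells of the pregnant uterus.

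The members lie on the minus strand of chromosome 14 in the mouse build mm9, which the deposited values use, over 117.038 kb. Gzme, at chr14:56736456-56739462, was followed by Gzmd at chr14:56748405-56751430 with 8.943 kb between them. Beyond them came Gzmg at chr14:56775418-56778416, Gzmf at chr14:56824100-56830244 and Gzmc at chr14:56850238-56853493. Gzmn, another granzyme gene, lies between Gzmg and Gzmf, at chr14:56784633-56793436. Gzmb lies 24.202 kb beyond Gzmc, and Mcpt8, which encodes a basophil granule protease of the same fold, lies 32.422 kb before Gzme. In the GENCODE transcript with the longest coding sequence, Gzme has 6 exons and the other 4 members have 5, and the proteins have 253 residues for Gzme, 252 for Gzmd and 248 for each of Gzmc, Gzmf and Gzmg.

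How alike these genes are decides how far their reads can be separated, so the sequences come before the values. Coding sequences of the 5 members were 71.4 to 94.2% identical in pairs, and the proteins 59.5 to 90.1%. Gzmd and Gzme were the closest pair, at 94.2% for the coding sequence and 90.1% for the protein, and their longest identical coding run was 96 bases. The stretch from base 104 to base 163 of the coding sequence, counted from the first base of the start codon in GENCODE vM1 on NCBIM37, the assembly of mm9, is printed here because it holds 10 of the differences by which reads of Gzme and Gzmd can be told apart, and capitals mark those 10 positions.
Gzme: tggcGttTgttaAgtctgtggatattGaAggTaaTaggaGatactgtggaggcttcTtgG
Gzmd: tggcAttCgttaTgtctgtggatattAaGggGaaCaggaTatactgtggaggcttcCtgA
Stretches of 36 bases were compared as a measure of this. Of those in the Gzme transcript, 67.2% occurred in no other protein-coding transcript, against 67.0% for Gzmd, 70.7% for Gzmg, 83.1% for Gzmf, 88.5% for Gzmc, 89.6% for Gzmn and 99.0% for Gzmb. Gzme shared 21.1% of its 36-base stretches with Gzmd. None of the members shared any with a gene outside the granzyme family. The division of FPKM between Gzme and Gzmd is therefore uncertain to that extent. The summed FPKM of the 5 members, which depends less on the division, is given beside each. The sum can still shift slightly with it, because FPKM is scaled by transcript length, here 938 bases for Gzme and 964 for Gzmd. Gzmn, with which Gzme shared 3.19% of its stretches, is not in the sum. The interval of the sum treats the errors of the members as independent.

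**Figure D1:**
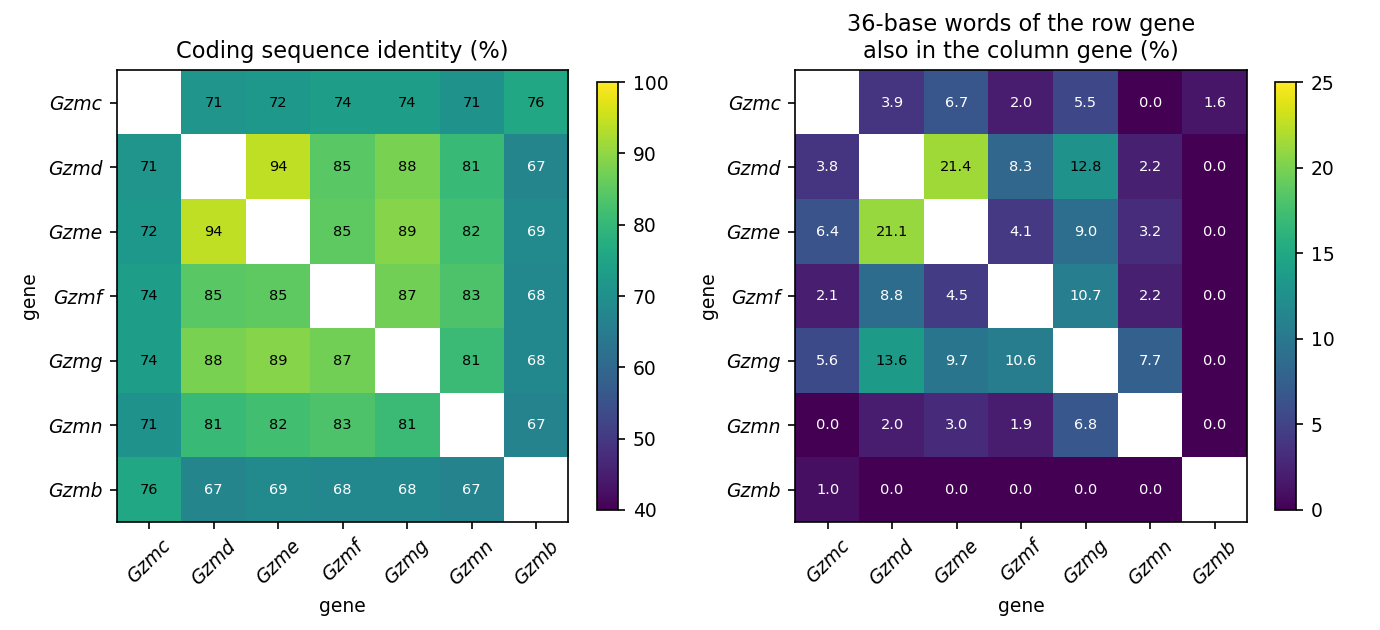
Pairwise identity of the coding sequences (percent, left) and the share of 36-base stretches of the row gene that also occur in the column gene (percent, right), for the 5 members and the neighbouring Gzmn and Gzmb. Gzmd and Gzme are the closest pair, at 94.2% in coding sequence, and Gzme shares 21.1% of its stretches with Gzmd.

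The promoters were also alike. Over the window from 250 bases before to 50 bases after the start site in the RefSeq table for GRCm38.p6, all 5 members were found, and their 10 pairs were 86.1 to 94.0% identical, with Gzmd and Gzme at 94.0%. The 15 pairs of a member with Gzmb, Gzmn or Mcpt8 were 47.8 to 60.2% identical. Capitals in the 110 bases printed here mark 8 aligned positions, which match the cyclic AMP response element (CRE) in some members and not in others. Not every capital differs between members, and some small letters differ too. The stretches are shown for these 8 positions, come from the minus strand of chromosome 14 and lie wholly before each start site. They are chr14:56234661-56234770 for Gzmc, chr14:56132601-56132710 for Gzmd, chr14:56120634-56120743 for Gzme, chr14:56211436-56211545 for Gzmf and chr14:56159603-56159712 for Gzmg.
Gzmc: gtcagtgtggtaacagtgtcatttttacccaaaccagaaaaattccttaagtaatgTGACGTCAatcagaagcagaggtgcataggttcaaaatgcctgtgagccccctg
Gzmd: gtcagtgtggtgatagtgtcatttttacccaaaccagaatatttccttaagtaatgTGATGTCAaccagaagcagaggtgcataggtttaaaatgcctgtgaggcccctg
Gzme: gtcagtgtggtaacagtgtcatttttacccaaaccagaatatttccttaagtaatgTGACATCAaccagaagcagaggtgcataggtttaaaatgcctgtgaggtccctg
Gzmf: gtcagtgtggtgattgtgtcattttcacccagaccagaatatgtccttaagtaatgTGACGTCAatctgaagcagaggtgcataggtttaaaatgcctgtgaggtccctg
Gzmg: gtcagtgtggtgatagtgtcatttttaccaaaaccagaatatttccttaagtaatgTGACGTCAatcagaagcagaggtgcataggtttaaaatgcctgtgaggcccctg
The CRE letters TGACGTCA were present in Gzmc, Gzmf and Gzmg, whose capitals begin 57, 82 and 77 bases before the start site, and in 1.79% of the 32851 mouse promoter windows searched on both strands. Gzmd carries TGATGTCA and Gzme carries TGACATCA at the aligned bases. Of the other motifs searched on both strands, the Runx core TGTGGT was found in 5 of 5 members and in 16.8% of all windows, and the E-box CANNTG in 4 of 5 and in 72.3%. The AP-1 letters TGANTCA were found in 0 of 5 members and in 7.81% of windows, and the TATA box letters TATAAA in 0 of 5 and in 13.6%. TTTAAA, which was added after the sequences had been seen, was found in Gzmd, Gzme, Gzmf and Gzmg and in 13.2% of windows. No match of 1 motif overlapped a match of another in these genes. A match of letters is a description of the window and not of binding.

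FPKM counts the sequenced fragments of a gene, scaled by the length of its transcripts and by the size of the library, and is thus a level per length, so that genes can be compared within a library. Each FPKM is followed by the 95% interval that Cufflinks, the authors' quantification program, wrote beside it. This interval is one within a library and does not cover the spread between cultures. For the members in total RNA its width was that of counting fragments alone, so doubt in dividing shared reads is not in it. Gzme, which carried most of the members' signal in every library, stood at 5.90 FPKM (5.29 to 6.51) in MB and 1.22 FPKM (0.948 to 1.49) in MT. The polyA libraries gave Gzme 7.63 FPKM (6.47 to 8.79) with the control siRNA and 1.97 FPKM (1.25 to 2.69) with si-hnRNPL. Gzme was thus lower in MT than in MB and lower in si-hnRNPL than in si-NC, and in both pairs the intervals did not overlap. Among named entries above 0, the level of Gzme exceeded that of 52.0% in MB, 37.1% in MT, 52.9% in si-NC and 33.8% in si-hnRNPL.

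Gzmd, the immediate neighbour of Gzme, had an FPKM of 1.06 (0.800 to 1.31) in MB and 0.0148 (0 to 0.0443) in MT. With polyA RNA it stood at 0.879 FPKM (0.495 to 1.26) for si-NC against 0.644 FPKM (0.228 to 1.06) for si-hnRNPL. Gzmd was low throughout, and its intervals were apart between MB and MT and overlapped between si-NC and si-hnRNPL.

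Gzmc was at 0.0935 FPKM (0.0172 to 0.170) in MB, from a value worth 6 fragments, and was listed at 0 in MT, si-NC and si-hnRNPL. Gzmf and Gzmg were listed at 0 in all 4 libraries. A listed 0 in such a table can also be a failed estimate: Vamp7, a widely expressed vesicle fusion gene, was listed at 0 in all 4 libraries too. The members above 0 numbered 3 in MB and 2 in each of MT, si-NC and si-hnRNPL. Over all 5 members the summed level was 7.05 FPKM (6.38 to 7.71) in MB, 1.23 FPKM (0.961 to 1.51) in MT, 8.51 FPKM (7.29 to 9.73) for si-NC, and 2.62 FPKM (1.79 to 3.45) for si-hnRNPL. The sum was lower in MT than in MB and lower in si-hnRNPL than in si-NC, and in each pair the intervals did not overlap.

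**Figure D2:**
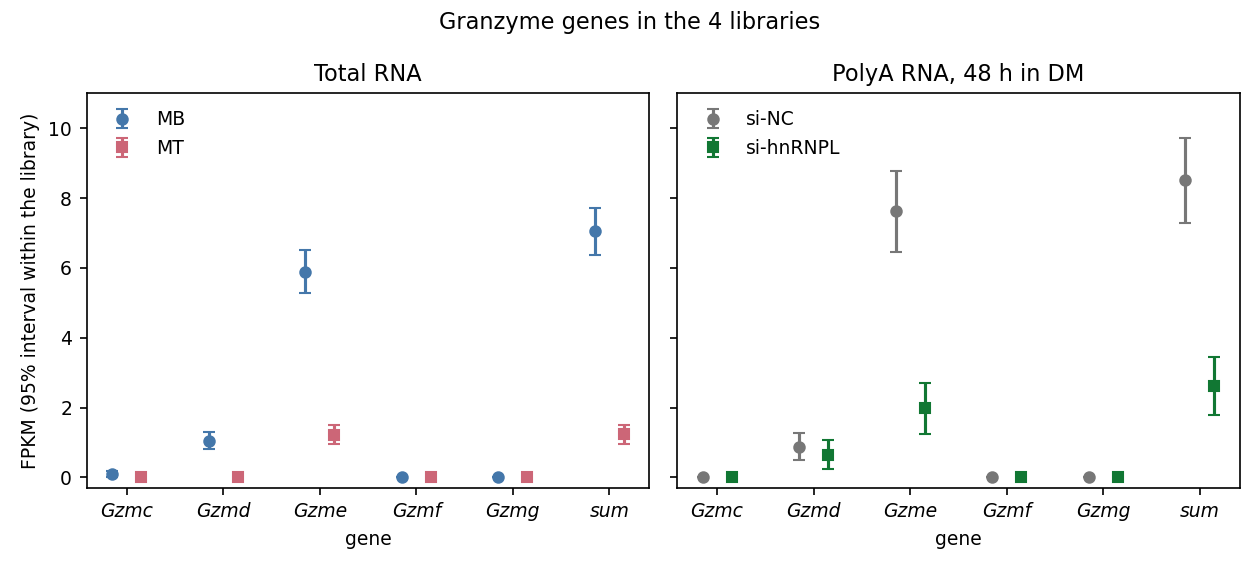
FPKM of each of the 5 members and of their sum in MB, MT, si-NC and si-hnRNPL, with 1 library per condition and the 95% interval written by Cufflinks as the error bar. Gzme makes up most of the sum in each library, at 5.90, 1.22, 7.63 and 1.97 FPKM.

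The width of an interval gives the number of fragments a value rests on, and for the members in the total RNA libraries this came out as a whole number within 0.01. Gzme rested on 373 fragments in MB and 81 in MT, Gzmd on 68 and 1, and the sum on 447 and 82. The same calculation gave whole numbers for only 1 of 2 members in each polyA library, where no fragment counts are given. Summed over all entries of a library, the intervals implied roughly 59960000 fragments in MB and 54442000 in MT. No such total is given for the polyA libraries, so depth is not compared between total RNA and polyA RNA.

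In the comparison of MT with MB, which follows differentiation, changes are given on the log2(FPKM + 1) scale, which understates the change of genes at a low level. Gzme was lower in MT by 1.64 (log2 change -1.64, 95% interval -1.85 to -1.42). In FPKM it was 4.84-fold higher in MB than in MT, with an interval of 3.79 to 6.18 from Cufflinks and 3.79 to 6.23 from the exact counting of fragments. MT kept 20.7% of the Gzme level of MB. Gzmd had a log2 change of -1.02 (-1.20 to -0.83). Its FPKM ratio of MB to MT was 71.4, but it rested on 68 fragments against 1, and the exact counting interval ran from 12.4 to 2862. The summed level had a log2 change of -1.85 (-2.06 to -1.64), a 5.71-fold difference (4.49 to 7.26), and MT kept 17.5% of it. No fold is given for Gzmc, Gzmf or Gzmg, since MT lists each at 0.

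The study's threshold of 1.5-fold was set at 0.58 on the log2(FPKM + 1) scale. Unless another cut is stated, every count of genes lower or higher given here uses it. By it, 2 of the 5 members, Gzmd and Gzme, were lower in MT and 0 were higher. Over all 18417 named entries above 0 in either library, 18.4% were lower and 10.5% were higher, with a median log2 change of -0.0056. Among the 11758 at 1 FPKM or more in either library, 28.5% were lower and 15.4% were higher, with a median of -0.20. Lower expression in MT was thus common in this comparison. Ordered from the largest fall, Gzme was at place 572 and Gzmd at place 1499 of 11758.

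In the comparison of si-hnRNPL with si-NC, which asks what reduced hnRNPL does in differentiating cells, the targeted gene comes first. Hnrnpl itself was at 95.1 FPKM in si-NC and 85.9 FPKM in si-hnRNPL, that is 90.4% of the control, with a log2 change of -0.14 (-0.20 to -0.085). Its RNA was thus only slightly lower. The paper examined the knockdown by Western blot of the protein, and these values do not show how far the protein was reduced in the sequenced cells. Gzme had a log2 change of -1.54 (-1.94 to -1.14), a 3.87-fold difference in FPKM (2.60 to 5.74), and the library labelled si-hnRNPL kept 25.9% of the control level. Gzmd had a log2 change of -0.19 (-0.66 to 0.28), a ratio of 1.36 with an interval of 0.626 to 2.97, so a difference of Gzmd was not detectable here. The summed level had a log2 change of -1.39 (-1.77 to -1.01), a 3.25-fold difference (2.29 to 4.61), and 30.8% of it was kept. Gzmc, Gzmf and Gzmg were listed at 0 in both libraries and have no fold.

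Here 1 of the 5 members, Gzme, was lower past 1.5-fold and 0 were higher. Among all 16766 named entries above 0 in either library, 0.62% were lower and 1.03% were higher, with a median log2 change of -0.0014. Among the 11369 at 1 FPKM or more in either library, 0.888% were lower and 1.44% were higher, with a median of -0.010. Gzme was at place 11 of 11369 in the order of falls. Since the members were chosen on these values, its place is a description.

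**Figure D3:**
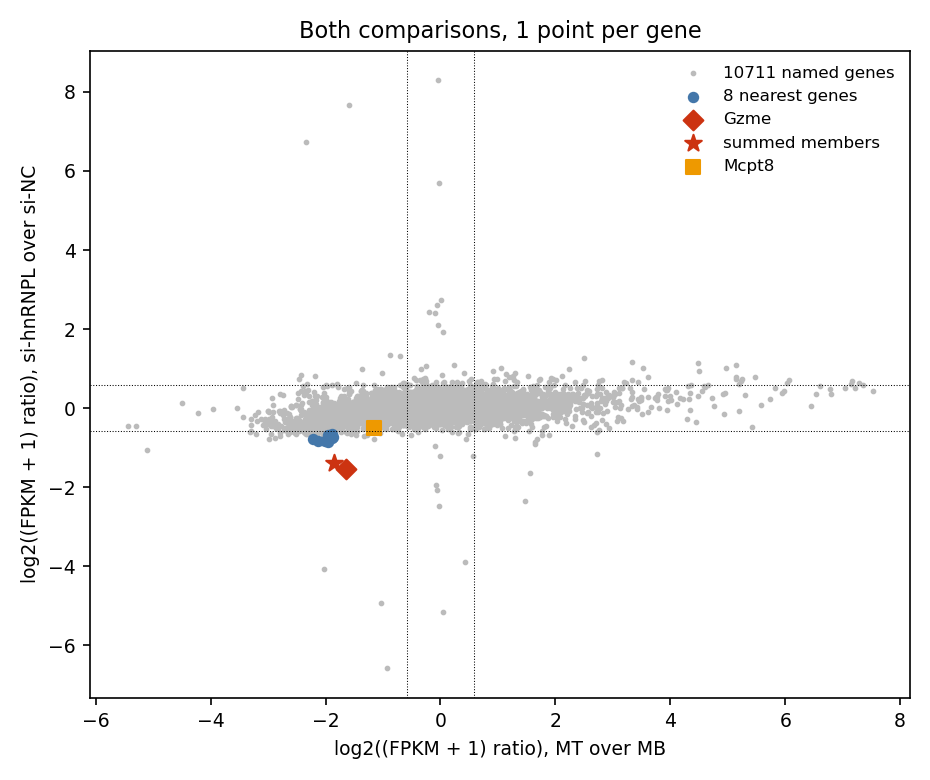
The log2 change of MT over MB (horizontal axis) against that of si-hnRNPL over si-NC (vertical axis), both of (FPKM + 1), for 10711 named genes, with Gzme, the summed members, Mcpt8 and the 8 genes nearest the sum marked and dotted lines at 0.58 in each direction. Gzme lies at -1.64 and -1.54, and the sum at -1.85 and -1.39.

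The share of Gzmd in the joint FPKM of Gzmd and Gzme was 15.2% (11.8 to 18.6) in MB and 1.20% (0 to 3.58) in MT. For the polyA pair it was 10.3% (6.05 to 14.6) with si-NC against 24.6% (10.8 to 38.4) with si-hnRNPL. The share was lower in MT than in MB with intervals apart, while the intervals of si-NC and si-hnRNPL overlapped. Counted in fragments, Gzmd held 15.4% of the 441 fragments of the pair in MB (exact Clopper-Pearson 95% interval 12.2 to 19.1) and 1.22% of 82 in MT (0.0309 to 6.61). These intervals cover counting error only, and the part that the division of shared reads has in these shares was not tested.

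The genes around the members were examined within 500 kb on either side. This window held 47 named entries, 42 of them not members, and 23 units assembled without a gene name, of which 16 reached 1 FPKM and 0 lay inside the span of the members. Of the 42 neighbours, 22 reached 1 FPKM in a library. In MT over MB, 28.5% of all named entries at 1 FPKM or more were lower past 1.5-fold and 15.4% were higher, with a median of -0.20. Of the 22 neighbours, 9 were lower and 1 was higher, with a median log2 change of -0.47. The extremes were Ripk3, which encodes a kinase of necroptosis and went from 11.99 to 2.35 FPKM, at -1.96, and Nfatc4, a calcium-regulated transcription factor gene, at 0.61. In si-hnRNPL over si-NC, 0.888% of all named entries at 1 FPKM or more were lower and 1.44% were higher. Of the 22 neighbours, 0 were lower and 0 were higher, with a median of -0.025 and a range from -0.51 to 0.30. The range in that comparison thus lay wholly above the value of Gzme, which is a description, since the members were chosen on these values. Gzmd, a member and so not among the 22, was at -0.19.

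Mcpt8, which lies on the other side of Gzme, was the lowest of these 22 in si-hnRNPL over si-NC. Mcpt8 was at 10.5 FPKM in MB and 4.16 FPKM in MT, with a log2 change of -1.15 (-1.34 to -0.97) and a 2.52-fold difference (2.16 to 2.93). It was at 2.80 FPKM in si-NC and 1.66 FPKM in si-hnRNPL, with a log2 change of -0.51 (-0.99 to -0.036), and si-hnRNPL kept 59.4%. Mcpt8 was therefore lower in the second library of both pairs, past the 1.5-fold threshold on the log2(FPKM + 1) scale in MT over MB only, and whether the 2 changes differ was not tested.

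**Figure D4:**
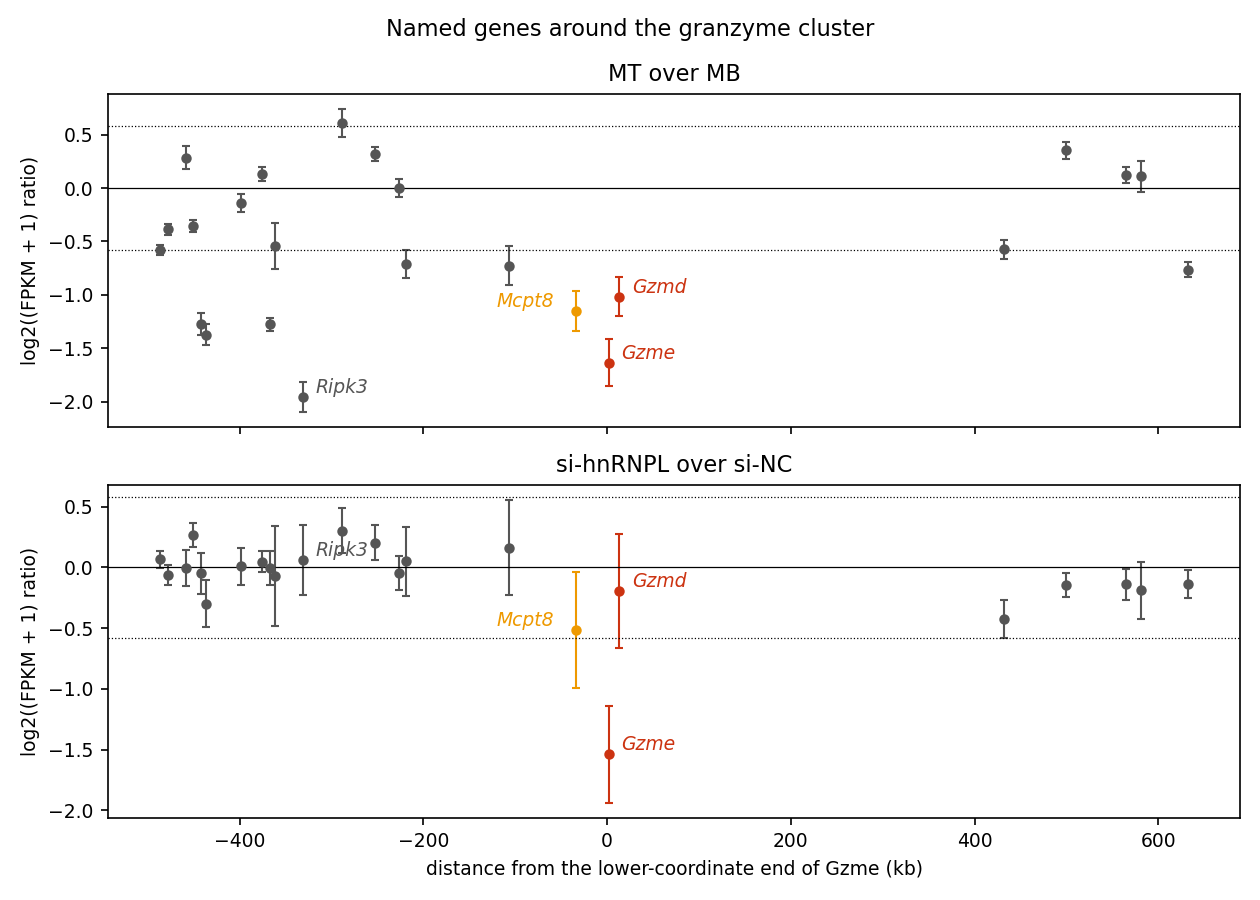
The log2 change of (FPKM + 1) for named genes at 1 FPKM or more within 500 kb of the members, plotted by distance from Gzme (kb), for MT over MB (upper panel) and si-hnRNPL over si-NC (lower panel), with 95% intervals as error bars and dotted lines at 0.58 in each direction. In the lower panel Gzme, at -1.54, lies below the 22 neighbours, which span -0.51 to 0.30.

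The counts in this and the following lists stand beside the shares over all named entries above 0. Those shares were 18.4% lower and 10.5% higher in MT over MB, and 0.62% lower and 1.03% higher in si-hnRNPL over si-NC. Among 13 other granzymes and serine proteases of the chromosome 14 cluster, Mcpt8 was the sole gene at 1 FPKM or more. Of the 7 above 0 in MB or MT, 1 was lower and 0 were higher, with a median log2 change of -0.054. Of the 6 above 0 in a polyA library, 0 were lower and 0 were higher, with a median of -0.061. Gzmb was at 0.038 FPKM in MB, worth 4 fragments, and was listed at 0 in the other libraries. Gzma, the other major lymphocyte granzyme gene, was listed at 0 in all 4. Gzmm was at 0.664, 0.927, 0.194 and 0.200 FPKM in MB, MT, si-NC and si-hnRNPL.

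The proteins that activate, pack and sort granzymes made a list of 10 genes. Of the 9 above 0 in MB or MT, 0 were lower and 2 were higher, with a median of 0.10. Srgn, the packing proteoglycan, went from 0.093 FPKM in MB to 1.87 in MT (log2 change 1.40), and Igf2r, a mannose 6-phosphate receptor that sorts lysosomal proteases, from 7.40 to 24.4 (1.60). Of the 7 above 0 in a polyA library, 0 were lower and 0 were higher, with a median of -0.026. Prf1 was at 0.019 FPKM in MB, 0.024 in MT and listed at 0 in both polyA libraries, and Ctsc was at 0.146, 0.214, 0.030 and 0.012 FPKM. Perforin and cathepsin C, which a granzyme needs for entry and activation in lymphocytes, were thus near 0, whereas the general lysosomal genes were high. Lamp1, a lysosome membrane protein, was at 179, 221, 322 and 351 FPKM, M6pr, the second mannose 6-phosphate receptor, at 80.4, 65.4, 68.6 and 61.4, and Ctsl, a lysosomal cathepsin, at 130, 166, 177 and 188. Ctsh, another cathepsin, was at 4.50, 4.90, 2.18 and 2.56 FPKM.

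Of 6 genes of granule release, 5 were above 0 in each pair. In MT over MB, 2 were lower and 1 was higher, with a median log2 change of -0.29. Rab27a, a GTPase that docks granules, went from 1.83 to 0.485 FPKM (-0.93) and Vamp8, a vesicle fusion protein, from 77.0 to 48.2 (-0.66). Unc13d, which primes granules for fusion, went from 0.244 to 5.54 FPKM (2.39). In si-hnRNPL over si-NC, 0 were lower and 0 were higher, with a median of 0.26.

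Serpins of clades A and B bind serine proteases and block them, and Serpinb9 and its relatives are known as granzyme inhibitors. Of 13 such genes, 0 were lower and 6 were higher in MT than in MB, with a median log2 change of 0.35. The 6 were Serpinb1a, Serpinb6b, Serpinb9c, Serpinb9d, Serpinb9e and Serpinb9g, at 0.64 to 1.74. In si-hnRNPL over si-NC, 0 were lower and 2 were higher, with a median of 0.075. Serpinb9d went from 0.116 to 1.27 FPKM (1.03) and Serpinb9g from 0.691 to 1.80 (0.73). Serpinb9 itself stayed close to 10.1 FPKM in MB, 10.4 in MT, 13.5 in si-NC and 13.6 in si-hnRNPL. Serpinb6a was the most abundant, at 271, 201, 316 and 328 FPKM, and Serpinb9b was at 10.4, 9.45, 35.8 and 32.6 FPKM. The Serpinb9 genes are a tandem family of near copies, so their separate values carry the same doubt as those of Gzmd and Gzme.

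Since granzymes are lymphocyte genes, the markers of cells that could carry them were read in each library. Of 20 T and NK cell markers, 9 were listed at 0 in MB, 10 in MT, 15 in si-NC and 14 in si-hnRNPL, and their summed level was 7.10, 5.46, 0.350 and 0.427 FPKM. Cd247, a T cell receptor chain gene, made up most of this sum in total RNA, at 6.47 and 5.13 FPKM, and was listed at 0 in both polyA libraries. Cd3e, Cd2, Ncr1, Klrb1c, Klrk1 and Tbx21 were listed at 0 in all 4, and Ptprc, the gene of the pan-leukocyte antigen CD45, was at 0 to 0.009 FPKM. None of the 20 was past 0.58 on the log2(FPKM + 1) scale in either comparison. On the FPKM scale Lck, a T cell kinase, was 2.78-fold higher in MB than in MT (1.68 to 4.61). Eomes, a transcription factor gene of cytotoxic lymphocytes, was 7.20-fold higher (1.64 to 31.6), and both were below 1 FPKM. Zap70, also on the list, went the other way, from 0.0058 FPKM in MB to 0.098 in MT. Its log2 change was 0.13 (0.046 to 0.21), but its FPKM ratio of MB to MT had a wide interval, 0.0018 to 1.93. In the polyA pair Lck was higher after the knockdown siRNA, at 0.214 FPKM against 0.123 for the control, with overlapping intervals. The median log2 change of the list was -0.0040 over 12 genes in MT over MB and 0.011 over 8 in si-hnRNPL over si-NC.

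Of 10 mast cell and basophil markers, Mcpt8 and Hdc were the only ones to reach 1 FPKM. The list, which shares Mcpt8, Mcpt4 and Cma1 with the proteases above, summed to 11.5, 4.73, 4.72 and 3.06 FPKM in MB, MT, si-NC and si-hnRNPL, and 5, 7, 6 and 6 of its genes were listed at 0. Of the 5 genes above 0 in MB or MT, all were at a lower FPKM in MT, and Mcpt8 was the 1 past the threshold, with a median log2 change of -0.074. In si-hnRNPL over si-NC, 0 of 5 were past it, with a median of -0.066. Hdc, the histamine-forming enzyme, was at 0.539, 0.494, 1.78 and 1.34 FPKM. Tpsab1, a mast cell tryptase gene, was at 0.339 FPKM (0.211 to 0.468) in MB and was listed at 0 in MT. Its value of 0.030 FPKM in si-NC had an interval of 0 to 0.131, and si-hnRNPL listed it at 0. Tpsab1 was thus higher in MB than in MT, as Gzme was, and no difference was detectable in the polyA pair. Ms4a2, a chain of the IgE receptor, was at 0.021 FPKM in MB and listed at 0 elsewhere. Cpa3, Tpsb2 and Fcer1a, also mast cell markers, were listed at 0 in all 4 libraries. The part of these lists in the levels of the members was not tested.

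The label of the line was read against 11 symbols of muscle genes, of which 10 are listed in each table because Mymk and Tmem8c name the same gene. Their summed level was 168 FPKM in MB, 2102 in MT, 3265 in si-NC and 4737 in si-hnRNPL. In MT over MB, 9 were higher and 0 were lower, and in si-hnRNPL over si-NC, 3 were higher and 0 were lower. Myog, the transcription factor gene of early differentiation, was at 0.695, 251, 175 and 249 FPKM, and Myod1, the myoblast determination gene, at 36.6, 65.9, 43.6 and 49.0. Myf5, another myoblast gene of the list, went the other way in si-hnRNPL over si-NC, from 38.5 to 29.0 FPKM (-0.40, -0.50 to -0.30). In total RNA Myf5 was nearly level, at 13.8 FPKM in MB and 13.6 in MT. Acta1 and Mylpf were the highest of the list in each polyA library and weigh most in its sum. The summed level of the muscle markers was thus higher where that of Gzme was lower, in both pairs, though not each marker was. Whether the extent of differentiation has a part in the levels of Gzme was not tested.

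The genes whose pattern was most like that of the members were found by their distance from the summed members in the plane of both log2 changes, over 10711 named genes and 4 libraries. Gzme makes up most of that sum, so its own distance of 0.256 is short by construction and is no measure of likeness. Among genes other than the members, the nearest were Hist1h4k at 0.557, Dck at 0.592, Hells at 0.622, Atad2 at 0.629, Ncapg2 at 0.674, Lrr1 at 0.725, Sema7a at 0.729 and Smc2 at 0.735. Hist1h4k encodes a histone H4, Dck a kinase of nucleoside salvage, Hells a chromatin remodeller, and Ncapg2 and Smc2 subunits of condensin. Hist1h4k was at 256 FPKM in MB and 64.9 in MT, but only at 1.09 in si-NC and 0.160 in si-hnRNPL. Its second change, and so its place as the nearest gene, rests on low values. Dck went from 21.1 FPKM in MB to 4.48 in MT and from 18.0 to 9.75 under si-hnRNPL. These 8 genes had log2 changes of -1.87 to -2.21 in MT over MB and of -0.66 to -0.85 in si-hnRNPL over si-NC. In the second comparison each thus lay closer to 0 than Gzme did. In all, 63 of the 10711 named genes were lower past 0.58 in both comparisons, which share no library. At the different cut of 1, 4 of the 10711 were lower in both. They were Gzme, the neurofilament gene Nefl, and the small RNA genes Gm24148 and Snora52, both listed at 0 in si-hnRNPL. These 4 were named after their values were seen, and the members were themselves chosen on these values, so the count is a description.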

How the data were processed

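Total RNA (MB, MT) and polyA RNA (si-NC, si-hnRNPL) of C2C12 cells were sequenced, with 1 library for each condition. The authors aligned reads to mm9 with TopHat2 2.0.13 and estimated levels with Cufflinks 2.1.1, and the deposited values are FPKM with 95% interval bounds; the annotation and read length are not given in the sources used here. Every per-sample column was mapped to its sample. From the FPKM, the log2 ratio of (FPKM + 1) was computed, with both half-widths combined in quadrature for its interval, and a 1.5-fold threshold (0.58), as in the study's methods. With 1 library a condition there is no test, and fragments were implied from the interval as the square of 2 times FPKM over its half-width. Ratios of fragments and their shares have exact binomial intervals, for counting error only. Ranks used named entries at 1 FPKM or more in either library. The members and all gene lists were chosen with earlier results of these data known. Genes were named by rule: the members, the genes of the lists, genes within 500 kb, and the 8 nearest in both changes. Some others, named as extremes or by a count of 4, were chosen after their values were seen. Identities came from pairwise alignments with Biopython 1.88 of GENCODE vM1 coding sequences and of RefSeq GRCm38.p6 promoters. Python 3.11.15, numpy 2.4.6, pandas 2.3.3 and scipy 1.17.1 were used, and the computation was tested on simulated data. The alternatives were pseudocounts of 0.1 and 0.01, centring on the median, nearest interval bounds, and leaving out Gzme.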

Additional observations from a re-analysis of the deposited data

How the results depend on the processing

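No paired analysis was possible because each condition has 1 library, and for the same reason no replicate could be left out. No change is given for Gzmc, Gzmf and Gzmg, since a library of each pair lists them at 0. In MT over MB, with pseudocounts of 0.1 and 0.01 FPKM in place of 1, the log2 change was -2.18 and -2.26 for Gzme, -3.33 and -5.43 for Gzmd, and -2.42 and -2.50 for the summed members. In that comparison the median gene at 1 FPKM or more in both libraries stood at -0.23, and relative to it Gzme was at -1.41, Gzmd at -0.79 and the sum at -1.62. Between the interval bounds nearest each other, the changes were -1.34 for Gzme, -0.79 for Gzmd and -1.56 for the sum. Without Gzme the sum stood at -1.08. In si-hnRNPL over si-NC, the pseudocount of 0.01 gave -1.95 for Gzme, and the nearest bounds gave -1.02 for Gzme and -0.90 for the sum. For Gzmd, whose intervals overlap, these bounds cross, and their value of 0.46 restates the overlap and is not a rise. Without Gzme, the sum there is Gzmd alone, at -0.19, so the change of the sum rests on Gzme. Each other value stayed within its 95% interval, and the counts of members lower stayed at 2 and 1, except for 3 in MT over MB with a pseudocount of 0.1, where Gzmc is counted against its listed 0. The cause was not tested. The change of Gzmd in MT over MB rests on 68 fragments against 1.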
